A study of Rattus norvegicus with 6 samples.

Results

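Cytosolic chaperones are the proteins that fold other proteins, keep them from clumping and hold them ready for degradation. The genes described here encode the DnaJ (Hsp40) co-chaperones, the Hsp70, Hsp90, Hsp60, Hsp10 and Hsp110 families, the small heat shock proteins, the subunits of the cytosolic chaperonin, the BAG domain proteins and the heat shock transcription factors. They were chosen by gene name among protein-coding genes (names beginning with Dnaj, an Hsp family letter with a number, or Cct, together with Tcp1, Bag and Hsf genes), with 7 named chaperones of the endoplasmic reticulum (ER) left out. The rule used no measured value, and it found 83 genes of 25689 in the table. Of these, 72 passed the filter on low counts, as did 14919 genes in all. The 11 others had at most 14 counts in any sample and reached at most 2.03 CPM, the count scaled to a common library size. They were Cct6b, the pair of genes named Cct8l1, Dnajb7, Dnajc5b, Dnajc5g, Dnajc22, Hspb2, Hspb3, Hspb7 and Hspb9.

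The samples hold RNA of sensory neurons from the upper lumbar dorsal root ganglia (L1-L2 DRGs). The animals were spontaneously hypertensive rats (SHRs), labelled wild type and 6-8 weeks old. There were 3 samples from rats after perirenal adipose ablation (PRATA), in which the fat around the kidney was removed. Another 3 came from rats after a sham operation, and all were collected 4 weeks after surgery. The sample titles and the paper do not say how many rats went into each sample. By the labels, no treatment or allele other than the ablation separated the groups, and no normotensive strain is among the samples analysed here. Ganglia were digested with collagenase and trypsin at a warm temperature, and neurons were flushed off the dish after a few hours in culture, so the samples are of dissociated and briefly cultured neurons. The comparison asks how DRG expression changes when the fat that these ganglia innervate is removed.

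Chaperone genes fall into those that are transcribed at all times and those that heat shock factor 1 switches on when unfolded proteins accumulate, through heat shock elements in their promoters. Hsp70 binds exposed hydrophobic stretches, DnaJ proteins deliver clients to it and start its ATPase cycle, and nucleotide exchange factors such as the BAG proteins and Hsp110 release them. Hsp90 takes over clients such as kinases and steroid receptors, while the chaperonin, a barrel of related subunits known as CCT or TRiC, folds actin and tubulin. Sensory neurons hold much tubulin and long axons, and small heat shock proteins such as Hspb1 are known for axon maintenance, since inherited variants of the human HSPB1 and HSPB8 genes cause peripheral neuropathy.

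The promoters of several of these genes carry the heat shock element, which is built from inverted repeats of a GAA unit. A pair of adjoining units, GAANNTTC or TTCNNGAA, was searched for in RefSeq promoter windows of the rat assembly GRCr8 (250 bases before to 50 after each start). Each of these strings is its own reverse complement, so both strands were covered, and neighbouring pairs may overlap. A pair was present in 15.9% of 33469 windows, and a run of 3 units (GAANNTTCNNGAA or TTCNNGAANNTTC) was present in 0.798%. Among members, 63 of 82 symbols had a window, and 20 of their 64 windows held a pair (31.2%) while 6 held a run of 3 units (9.38%). Of the 10 heat-inducible genes measured here, 7 had a window and 6 held a pair, the exception being Dnaja4. Of the 9 chaperonin genes, 3 held a pair, namely Cct4, Cct5 and Cct6a. A match describes letters in a window and is not a bound site.

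The following windows are shown because they belong to the heat-inducible and chaperonin genes with an unadjusted p under 0.05 in the comparison of PRATA with sham. Each runs from 200 bases before to 30 after the start, written 5′ to 3′ on the strand of the gene, with every pair of units in capitals. They lie at chr19:41431112-41431341 (Dnajb1, minus strand), chr1:192533260-192533489 (Bag3, plus strand), chr8:63981387-63981616 (Dnaja4, plus strand), chr2:176063329-176063558 (Cct3, plus strand) and chr14:101192857-101193086 (Cct4, plus strand) in GRCr8.
Dnajb1: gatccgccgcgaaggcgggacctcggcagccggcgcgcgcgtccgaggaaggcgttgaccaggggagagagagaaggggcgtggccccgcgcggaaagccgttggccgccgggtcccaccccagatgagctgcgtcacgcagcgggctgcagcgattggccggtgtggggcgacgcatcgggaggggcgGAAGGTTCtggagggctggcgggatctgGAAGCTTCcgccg
Bag3: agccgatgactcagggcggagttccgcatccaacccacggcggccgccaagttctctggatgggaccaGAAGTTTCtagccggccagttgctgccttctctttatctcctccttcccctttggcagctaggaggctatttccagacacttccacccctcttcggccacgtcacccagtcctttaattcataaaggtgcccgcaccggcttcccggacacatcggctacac
Dnaja4: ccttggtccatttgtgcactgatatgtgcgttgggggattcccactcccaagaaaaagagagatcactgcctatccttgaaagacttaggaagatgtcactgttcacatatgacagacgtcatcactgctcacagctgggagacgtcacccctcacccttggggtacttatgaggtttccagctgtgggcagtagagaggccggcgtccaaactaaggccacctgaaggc
Cct3: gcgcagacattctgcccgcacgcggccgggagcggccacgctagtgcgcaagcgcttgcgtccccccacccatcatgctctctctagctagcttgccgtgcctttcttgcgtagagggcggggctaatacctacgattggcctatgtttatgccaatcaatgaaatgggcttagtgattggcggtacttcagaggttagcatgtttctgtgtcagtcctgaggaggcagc
Cct4: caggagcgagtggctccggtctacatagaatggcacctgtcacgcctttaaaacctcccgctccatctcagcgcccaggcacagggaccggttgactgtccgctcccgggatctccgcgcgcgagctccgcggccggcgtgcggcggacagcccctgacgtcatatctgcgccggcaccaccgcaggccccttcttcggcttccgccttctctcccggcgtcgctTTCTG
In the Dnajb1 window, one pair lay just before the start and another just after it, and the Bag3 window held 1 pair upstream. The Dnaja4 and Cct3 windows held none. In Cct4, a run of 3 units began at the end of the printed stretch, where its first letters are in capitals, and continued past it.

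Total counts were between 5892967 and 15226952 per sample, and 3 counts corresponded to between 0.207 and 0.468 CPM. These limits cover counting error only, because PCR copies of a molecule were not told apart. CPM here are scaled by TMM factors and not by gene length, so levels are compared between samples and not between genes. No pair of samples agreed within sampling noise. PRATA replicate 3 and sham replicate 1 stood apart from the other 4 samples in the share of reads on Hspa1l (described with the Hsp70 genes), and counts without this pair are given beside those from all samples. Markers of neurons summed to between 12249 and 18974 CPM after PRATA and between 8543 and 12951 CPM after the sham operation, and all 10 had higher means after PRATA, 2 of them at an unadjusted p under 0.05 (Tubb3 and Prph). Satellite glial and Schwann cell markers overlapped between the groups, at 1200 to 2138 CPM against 1236 to 1667 CPM, with 5 of 10 higher and 2 at that threshold. Fibroblast markers (323 to 1975 CPM against 906 to 1818 CPM), macrophage markers (17.6 to 59.1 CPM against 17.5 to 44.4 CPM), endothelial markers (35 to 76.7 CPM against 17.5 to 104 CPM) and muscle markers (113 to 130 CPM against 61.5 to 147 CPM) also overlapped, and none of their genes passed that threshold. No marker was at 0 in all samples. In bulk samples, fewer cells of a type and less RNA per cell cannot be told apart.

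Chaperone genes took between 1.52% and 1.91% of all counts in a sample. Hsp90ab1 alone held 25.6% of the counts on these genes, Hspa8 11.8%, Hsp90aa1 7.87% and Hspa1b 6.73%. As a whole the family did not move in one direction. After PRATA, 36 of the 72 genes tested had a higher and 36 a lower fitted level, and the median log2 fold change was -0.0058, beside 0.02 for all 14919 genes.

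No member passed an adjusted p of 0.05 in edgeR's quasi-likelihood test, nor did any gene of the table (0%). The smallest adjusted p among members was 0.168. At an unadjusted p under 0.05, 5 members were higher (6.94%) and 7 lower (9.72%), while 8.19% of all genes tested were higher and 10.1% lower. With a log2 fold change beyond 1 in addition, 1 member was higher and 0 were lower, beside 1.17% and 3.23% of all genes. The PRATA and sham samples did not overlap for 6 members that were higher and 14 that were lower, beside 11.6% and 11.2% of all genes. The shares at an unadjusted p under 0.05 are close to the background. The share with groups that did not overlap in the lower direction (14 of 72) is above it. Of these 14, 6 were chaperonin genes, which shared their highest and their lowest sample and are not independent. DESeq2 gave 4 of 72 members at an adjusted p under 0.05, beside 4.99% of all genes, and limma voom with sample quality weights gave 7, beside 7.86%. The counts at an unadjusted p under 0.05 moved with single samples, as did those of all genes. Without sham replicate 3, 2 members were higher and 0 lower, beside 3.76% and 5.57% of all genes. Without PRATA replicate 1 they were 2 and 2 (3.47% and 5.44% of all genes), and without PRATA replicate 2 they were 3 and 4 (7.53% and 7.86%). Without sham replicate 2, 10 members were higher, beside 13.4% of all genes. Without PRATA replicate 3 and sham replicate 1 together, 9 were higher and 3 lower, beside 5.98% and 6.90%. Every p-value measures the spread between these 6 samples.

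**Figure D1:**
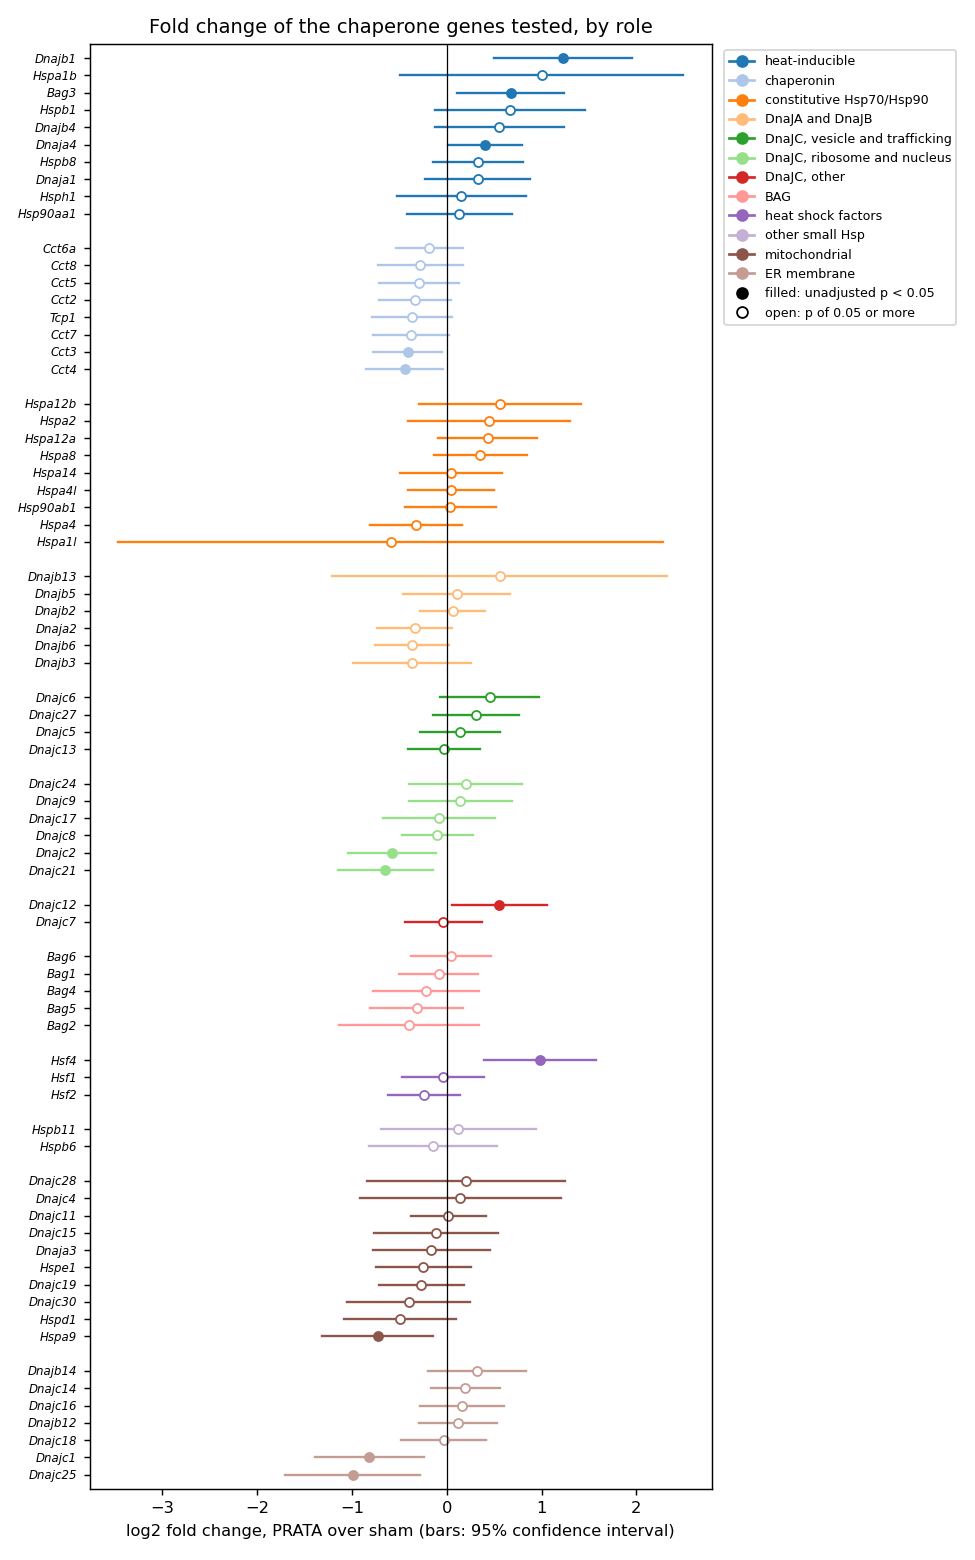
Log2 fold change (PRATA against sham, edgeR, x axis) with its 95% confidence interval for the chaperone genes tested, grouped by role on the y axis. All 10 heat-inducible genes lie to the right of 0 and all 8 chaperonin genes to the left, while most intervals cross 0.

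The heat-inducible genes and the chaperonin genes, taken apart, had fold changes of opposite sign. All 10 members on the heat-inducible list had higher fitted levels after PRATA. Their median log2 fold change was 0.48, with a range of 0.13 to 1.23. Of these, 3 passed an unadjusted p of 0.05 (Dnajb1, Bag3 and Dnaja4), beside 8.19% of all genes that were higher. The shared direction holds for the list as drawn, with earlier results of these data known. Outside it, members with a run of 3 units in their window were Hspa8 (log2 fold change 0.35), Cct4 (-0.44), Hspd1 (-0.49) and Hspe1 (-0.25). Cryab, heat-inducible but outside the name rule, had a log2 fold change of -0.88. All 8 chaperonin genes tested were lower, with a median of -0.35 and a range of -0.44 to -0.18. Of them, 2 passed (Cct3 and Cct4), beside 10.1% of all genes that were lower. The difference between the lists was not tested, and genes of a list that rise and fall together in the same samples are not independent.

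Dnajb1, the main heat-inducible DnaJ partner of Hsp70, showed the largest difference of the family (ENSRNOG00000021824). It was at 221, 341 and 162 CPM in PRATA replicates 1, 2 and 3 and at 133, 100.4 and 75.9 CPM in sham replicates 1, 2 and 3. Every PRATA sample was above every sham sample, and the log2 fold change was 1.23 ± 0.32 (SE), a 2.34-fold difference with a 95% interval of 0.50 to 1.95 on the log2 scale (edgeR, unadjusted p = 0.00453, adjusted p = 0.168). It passed an unadjusted p of 0.05 in all 15 alternatives, with adjusted p between 0.00857 (DESeq2) and 0.550, and the log2 fold change lay between 0.90 and 1.67.

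Bag3, the stress-induced BAG protein that couples Hsp70 and small heat shock proteins to autophagy, was at 411, 374 and 280 CPM after PRATA and at 283, 204 and 179 CPM after the sham operation. The groups overlapped only through PRATA replicate 3 and sham replicate 1 (log2 fold change 0.68 ± 0.25 SE, edgeR unadjusted p = 0.0246, adjusted p = 0.222). The call was lost when PRATA replicate 1, PRATA replicate 2, sham replicate 2 or sham replicate 3 was left out. Dnaja4, another inducible DnaJ protein, was at 138, 114 and 121 CPM against 88.1, 107 and 86.0 CPM, without overlap (log2 fold change 0.41 ± 0.17 SE, edgeR unadjusted p = 0.0423, adjusted p = 0.257). It kept an unadjusted p under 0.05 in 6 of the 15 alternatives, and lost it without PRATA replicate 1 or 3 or sham replicate 1 or 3.

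The other heat-inducible genes did not pass the test. Hspa1b, the inducible Hsp70, ranged most widely: 1535, 2338 and 536 CPM after PRATA and 1167, 807 and 228 CPM after the sham operation. Its lowest PRATA sample was below 2 of the 3 sham samples, and the interval of its log2 fold change of 1.0 ran from -0.49 to 2.50 (edgeR adjusted p = 0.437). Hspb1, the small heat shock protein of axons, was at 305, 560 and 243 CPM against 307, 197 and 192 CPM (log2 fold change 0.67, interval -0.13 to 1.46, adjusted p = 0.334, edgeR). The difference rested largely on PRATA replicate 2, since replicates 1 and 3 lay at or below sham replicate 1. Hspb8, its partner in the Bag3 complex, was at 226, 193 and 217 CPM against 136, 210 and 159 CPM (log2 fold change 0.33), and Dnajb4 at 100.2, 104 and 54.0 CPM against 66.5, 67.7 and 41.6 CPM (log2 fold change 0.56).

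Hsp90aa1 and Hsph1 had the smallest fold changes of the list. Hsp90aa1, the inducible Hsp90, was at 1733, 1402 and 1122 CPM against 1208, 1492 and 1184 CPM, and its log2 fold change was 0.13 with an interval of -0.42 to 0.68. Hsph1, the Hsp110 that recharges Hsp70, was at 1002, 1105 and 547 CPM against 874, 860 and 651 CPM, with a log2 fold change of 0.15 and an interval of -0.53 to 0.84. Both changed sign when 1 PRATA sample was left out, to -0.05 for Hsp90aa1 without PRATA replicate 1 and to -0.04 for Hsph1 without PRATA replicate 2. Dnaja1, a farnesylated DnaJ protein that works with Hsp70 and Hsp90, had a log2 fold change of 0.33 with an interval of -0.23 to 0.88.

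**Figure D2:**
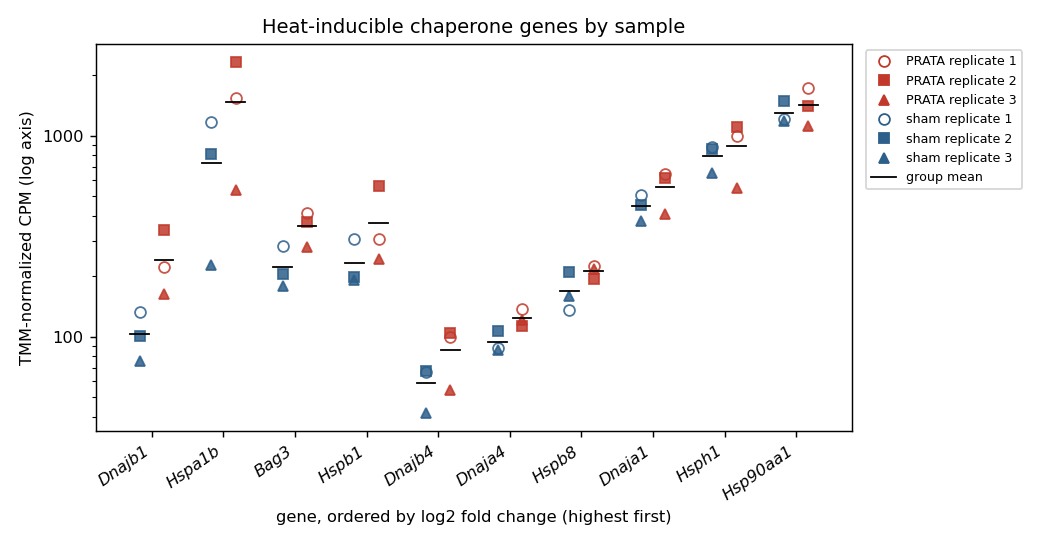
CPM (log axis) of the 10 heat-inducible genes in each PRATA and sham sample, 1 point per sample, with a bar at the group mean. PRATA replicates 1 and 2 hold the highest value for every gene, and only for Dnajb1 and Dnaja4 do the groups not overlap.

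The same samples tended to be high or low across these genes, though not in one order. PRATA replicate 1 was highest for 5 of the 10 and PRATA replicate 2 for the other 5, while sham replicate 3 was lowest for 7, PRATA replicate 3 for 2 and sham replicate 1 for 1. Averaged over the 10 genes, log2 CPM lay above the mean of the 6 samples by 0.43 and 0.56 in PRATA replicates 1 and 2 and was at -0.18 in PRATA replicate 3. The sham samples lay at -0.04, -0.14 and -0.62 in replicates 1, 2 and 3, so PRATA replicate 3 was below 2 of the sham samples. Without sham replicate 3, the median log2 fold change was 0.36. In that fit 1 gene passed an unadjusted p of 0.05, beside 3.76% of all genes that were higher. Without PRATA replicate 3 and sham replicate 1 together the median was 0.75. There 6 genes passed, beside 5.98% of all genes that were higher. On this list those were the lowest PRATA and the highest sham sample, so leaving them out widens the difference by construction.

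Genes of the early response, which dissociation of tissue and neuronal activity are known to induce, moved beside the heat-inducible ones. Of 12 such genes, 10 had higher means after PRATA, with a median log2 fold change of 0.73. At an unadjusted p under 0.05, 5 were higher, beside 8.19% of all genes. The groups did not overlap for 1 of the 12, Fos, beside 11.6% of all genes. Their summed level was 1789 to 3929 CPM after PRATA and 1088 to 2593 CPM after the sham operation. Fos was at 379, 474 and 297 CPM against 217, 96.3 and 77.5 CPM (log2 fold change 1.56, edgeR adjusted p = 0.167). Fosb was at 524, 601 and 178 CPM against 209, 62.1 and 32.4 CPM (log2 fold change 2.1, edgeR adjusted p = 0.203). Atf3 was at 278, 327 and 108 CPM against 125, 82.7 and 56.5 CPM (log2 fold change 1.43, edgeR adjusted p = 0.182). Both overlapped through PRATA replicate 3 and sham replicate 1. The mean deviations of this list were 0.46, 0.80 and -0.12 in PRATA replicates 1 to 3 and 0.42, -0.80 and -0.75 in sham replicates 1 to 3, and those of the neuron markers were 0.46, -0.12 and 0.46 against -0.57, 0.04 and -0.27. The part of either in the levels of the heat-inducible genes was not tested.

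**Figure D3:**
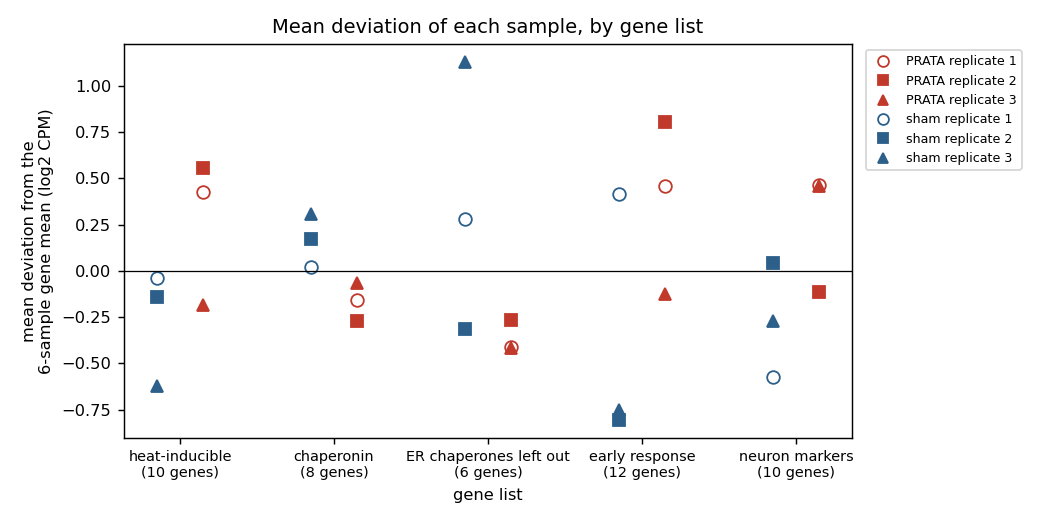
Mean deviation of log2 CPM from the 6-sample mean (y axis) in each sample, 1 point per sample, for the heat-inducible, chaperonin, ER, early-response and neuron-marker lists (x axis). PRATA replicate 2 is highest for the heat-inducible and early-response lists and lowest for the chaperonin list, and sham replicate 3 is highest for the chaperonin and ER lists.

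Of the 3 heat shock factors, Hsf4 passed an unadjusted p of 0.05. Hsf1, the factor that drives the heat shock response, was at 27.1, 21.5 and 26.6 CPM after PRATA and at 27.6, 21.5 and 27.9 CPM after the sham operation, and its log2 fold change of -0.04 had an interval of -0.47 to 0.39. Its direction was not stable, since it was 0.07 without PRATA replicate 2 and 0.03 without sham replicate 3. Hsf4, a factor best known from the lens, was at 21.2, 16.6 and 21.7 CPM against 9.05, 13.4 and 7.75 CPM. The groups did not overlap, and the log2 fold change was 0.98 ± 0.26 (SE; edgeR, unadjusted p = 0.00479, adjusted p = 0.168). As with Dnajb1, it passed an unadjusted p of 0.05 in all 15 alternatives, with adjusted p from 0.0274 to 0.550. Hsf2, a factor of development and stress, was at 34.1, 29.7 and 36.5 CPM against 43.0, 38.2 and 37.2 CPM, lower without overlap by a narrow gap (log2 fold change -0.24, edgeR adjusted p = 0.465).

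The share of reads on Hspa1l, a neighbour of the inducible Hsp70 genes, differed between samples. Hspa1l, Hspa1a and Hspa1b lie side by side in RefSeq's annotation of GRCr8, with overlapping spans for Hspa1l and Hspa1a, and Hspa1a was not analysed here. How reads that map to several places were counted is not given in the sources used here, so the split between these closely related genes is uncertain. Hspa1l, whose protein is best known from testis, held 72, 62 and 528 counts in PRATA replicates 1 to 3 and 1126, 23 and 23 in sham replicates 1 to 3. Of the counts on Hspa1l and Hspa1b together, Hspa1l took 7.23% (95% exact binomial interval 6.65% to 7.85%) in PRATA replicate 3 and 6.25% (5.90% to 6.61%) in sham replicate 1. In the other 4 samples it took between 0.211% and 0.942%. The high share thus fell in 1 sample of each group, and the log2 fold change of Hspa1l, -0.59, had an SE of 1.25. The sum of both genes was 1544, 2343 and 578 CPM after PRATA and 1245, 811 and 231 CPM after the sham operation, in the same order as Hspa1b alone.

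**Figure D4:**
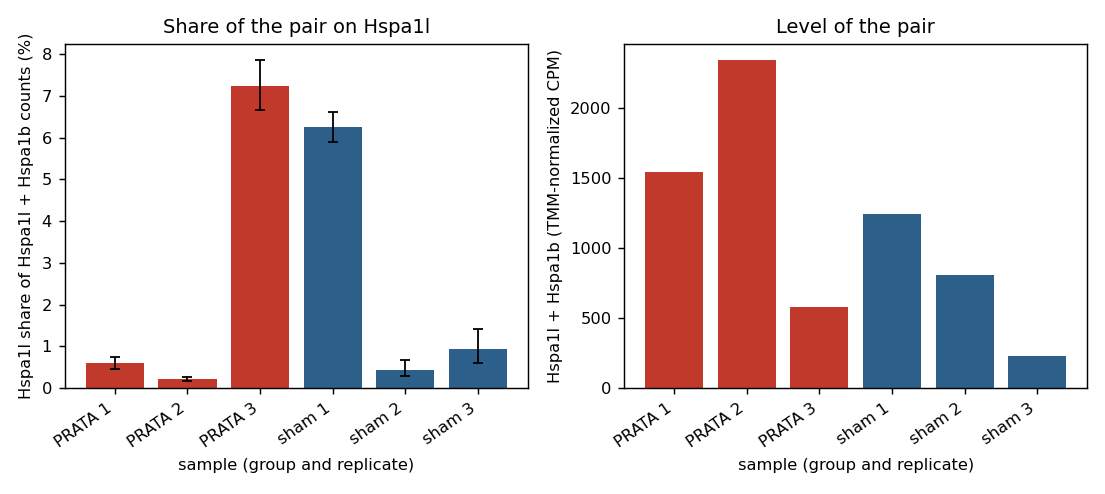
Hspa1l as a percentage of the counts on Hspa1l and Hspa1b together in each sample, with exact 95% binomial intervals, beside the summed CPM of both genes. PRATA replicate 3 (7.23%) and sham replicate 1 (6.25%) stand above the other 4 samples, which are all at or below 0.942%.

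All 8 chaperonin genes had lower fitted levels after PRATA. An unadjusted p of 0.05 was passed by 2, beside 10.1% of all genes that were lower, and an adjusted one by none. Cct3 was at 157, 152 and 160 CPM in the PRATA samples and at 203, 197 and 225 CPM in the sham samples, with a log2 fold change of -0.41 ± 0.16 (SE; edgeR, unadjusted p = 0.0303, adjusted p = 0.233). Cct4 was at 129, 122 and 142 CPM against 150.3, 183 and 201 CPM (log2 fold change -0.44 ± 0.18 SE, edgeR unadjusted p = 0.0349, adjusted p = 0.241). For both genes every PRATA sample was below every sham sample, and the same held for Cct7, Cct2, Tcp1 and Cct5, which makes 6 of the 8 genes, beside 11.2% of all genes.

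The unadjusted p of those other genes was between 0.0591 and 0.146. Cct7 was at 149, 139 and 180 CPM against 193, 199 and 217 CPM (log2 fold change -0.38). Tcp1, the founding subunit, was at 193, 186 and 237 CPM against 248, 254 and 292 CPM (log2 fold change -0.36), and Cct2 at 149, 132 and 151 CPM against 162, 186 and 197 CPM (log2 fold change -0.33). Cct5 was at 289, 256 and 292 CPM against 310, 331 and 384 CPM (log2 fold change -0.29). In each of these genes the gap between the groups was narrower than the range within them. Cct8 was at 205, 171 and 186 CPM against 182, 241 and 259 CPM, and overlapped because sham replicate 1 was below PRATA replicates 1 and 3. Cct6a, at 113, 109.9 and 119 CPM against 117, 134 and 137 CPM, overlapped by the same sample and differed least, at -0.18 on the log2 scale.

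**Figure D5:**
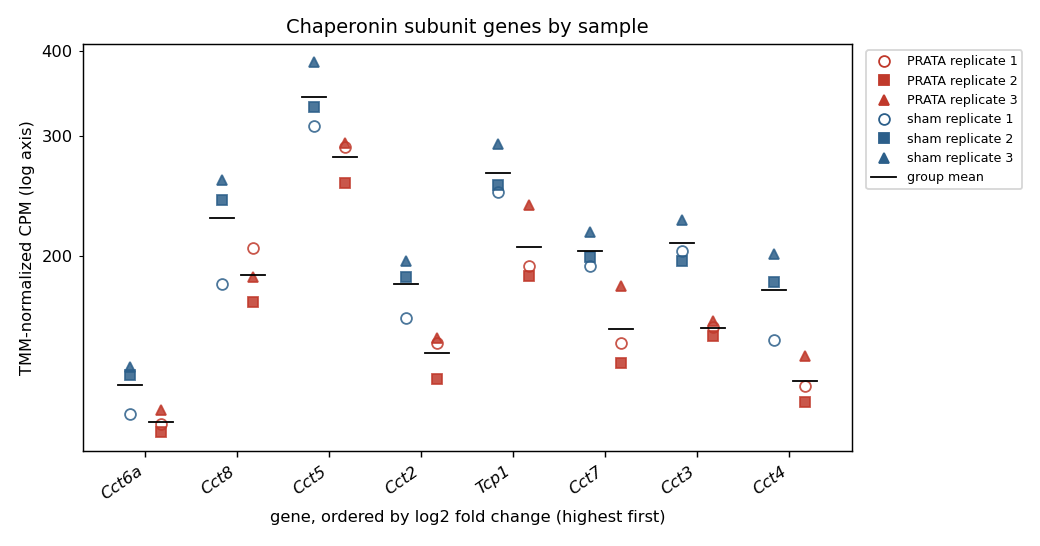
CPM (log axis) of the 8 chaperonin genes tested in each PRATA and sham sample, 1 point per sample, with a bar at the group mean. Sham replicate 3 is highest and PRATA replicate 2 lowest for all 8 genes, and the groups overlap for Cct8 and Cct6a.

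The chaperonin genes shared their highest and their lowest sample. Sham replicate 3 was highest for 8 of 8 and PRATA replicate 2 lowest for 8 of 8, and the mean deviations were -0.16, -0.27 and -0.07 in PRATA replicates 1 to 3 and 0.02, 0.17 and 0.31 in sham replicates 1 to 3. All 8 genes were lower in each of the 15 alternatives, with a median log2 fold change between -0.46 and -0.27, but the number at an unadjusted p under 0.05 went from 0 to 5. The 5 came with voom and sample quality weights, where 15.3% of all genes were lower at that threshold. The number was 0 without PRATA replicate 1, without PRATA replicate 2, without sham replicate 3, with no filter on low counts and with the replicate number as a block. In those settings between 5.44% and 8.19% of all genes were lower at that threshold. Cct3 and Cct4 each passed in 8 of the 15, and both lost the call without any 1 of the PRATA samples or without sham replicate 3, as Cct4 also did without sham replicate 2.

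Helpers of the chaperonin and of Hsp90 did not share one direction. Of the 6 prefoldin genes, which hand unfolded actin and tubulin to the chaperonin, 5 had higher fitted levels after PRATA. Vbp1 alone passed an unadjusted p of 0.05, at 40.9, 40.6 and 50.8 CPM against 37.1, 28.7 and 31.4 CPM (log2 fold change 0.44, edgeR adjusted p = 0.255), while Pfdn2 had a log2 fold change of -0.19 and Pfdn4 of 0.11 (-0.02 without PRATA replicate 3). Among 20 other co-chaperones, 10 were higher and 10 lower, 2 of the lower ones at that threshold. Ptges3, the p23 protein that closes the Hsp90 cycle, was at 141, 130 and 166 CPM against 187, 177 and 212 CPM (log2 fold change -0.40, edgeR adjusted p = 0.271), and Ppid, an Hsp90-bound cyclophilin, at 54.7, 47.8 and 51.4 CPM against 73.3, 58.4 and 69.2 CPM (log2 fold change -0.39, edgeR adjusted p = 0.264). Ttc4, also a cochaperone of Hsp90, had a log2 fold change of -0.37. Cryab, a small heat shock protein that is itself heat-inducible but stands outside the names of the rule, was named after its value was seen. It was at 378, 298 and 159 CPM against 817, 270 and 446 CPM, with overlap, and its log2 fold change of -0.88 had an interval of -1.90 to 0.15 (edgeR adjusted p = 0.329), in the direction opposite to the heat-inducible members.

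Of the 9 constitutive Hsp70 and Hsp90 genes, none passed an unadjusted p of 0.05, with 7 higher, 2 lower and a median log2 fold change of 0.04. That median was not stable. It lay between 0.014 (library size alone) and 0.47 (voom with sample quality weights) over the alternatives, and was 0.36 with the replicate number as a block. In the voom fit 8 of 9 were higher and 3 passed, beside 15.6% of all genes that were higher. Hspa8, the constitutive Hsc70 that also uncoats clathrin vesicles, was at 2433, 2189 and 2119 CPM against 1697, 2015 and 1563 CPM. The groups did not overlap, and the interval of its log2 fold change of 0.35 was -0.14 to 0.85 (edgeR adjusted p = 0.408). Hsp90ab1, the constitutive Hsp90, had a log2 fold change of 0.04 with an interval of -0.44 to 0.52. Hspa4, an Hsp110 relative that acts as an exchange factor, was at 448, 407 and 360 CPM against 424, 493 and 605 CPM (log2 fold change -0.33), with sham replicate 3 highest. Hspa12a, a divergent Hsp70, was at 497, 378 and 467 CPM against 275, 416 and 304 CPM (log2 fold change 0.43, edgeR adjusted p = 0.345).

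Small heat shock protein genes outside the inducible list had low counts, and 2 of 6 were tested. Hspb6 was at 3.68 to 5.46 CPM and Hspb11, which belongs to the intraflagellar transport complex, at 2.76 to 5.31 CPM over the 6 samples, with log2 fold changes of -0.15 and 0.12 that each changed sign when samples were left out. Of the 5 BAG genes other than Bag3, 4 were lower and none passed an unadjusted p of 0.05. Bag5, at 55.9, 33.9 and 47.6 CPM against 53.3, 64.0 and 54.1 CPM, had a log2 fold change of -0.32, Bag2 of -0.40 and Bag4 of -0.22. The heat-inducible Bag3 was thus the one BAG gene past that threshold.

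Of the 6 DnaJ genes on the ribosomal, spliceosomal and nuclear list, 2 passed an unadjusted p of 0.05. Both were lower, beside 10.1% of all genes. Dnajc2, which sits with an Hsp70 at the ribosome exit, was at 61.4, 65.5 and 66.0 CPM after PRATA and at 72.4, 97.1 and 118 CPM after the sham operation (log2 fold change -0.57 ± 0.20 SE, edgeR unadjusted p = 0.0212, adjusted p = 0.216). Dnajc21, which takes part in the maturation of the large ribosomal subunit, was at 38.0, 41.3 and 42.5 CPM against 74.2, 45.0 and 71.6 CPM (log2 fold change -0.65 ± 0.22 SE, edgeR unadjusted p = 0.0171, adjusted p = 0.201). Both were lower without overlap, and both lost the call without PRATA replicate 1 and without sham replicate 3, as Dnajc2 also did without PRATA replicate 2 and Dnajc21 without PRATA replicate 3 and sham replicate 1 together. The 4 others of the list had unadjusted p of 0.469 and above. One of them, Dnajc24, a co-chaperone in diphthamide synthesis, was at 4.86 to 6.09 CPM after PRATA and at 4.37 to 4.84 CPM after the sham operation, with a log2 fold change of 0.20.

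The remaining cytosolic DnaJ genes were mixed. Dnajc12, a partner of the aromatic amino acid hydroxylases, was at 10.3, 8.92 and 9.33 CPM against 6.77, 5.93 and 6.71 CPM (log2 fold change 0.55 ± 0.22 SE, edgeR unadjusted p = 0.0349, adjusted p = 0.241). It was higher without overlap, and passed an unadjusted p of 0.05 in 5 of the 15 alternatives but in none that left out a sample. Dnajc7, a co-chaperone with tetratricopeptide repeats, had a log2 fold change of -0.03. Of 6 DnaJA and DnaJB genes, 3 were higher and 3 lower and none passed. The aggregation suppressor Dnajb6 was at 73.3, 71.4 and 82.7 CPM against 112, 84.6 and 96.3 CPM (log2 fold change -0.37), and Dnaja2 at 129, 109 and 122 CPM against 130, 166 and 160.3 CPM (log2 fold change -0.34), both without overlap. Dnajb3 was at 3.87 to 4.62 CPM after PRATA and at 4.53 to 5.95 CPM after the sham operation (log2 fold change -0.37).

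None of the 4 vesicle-linked DnaJ genes tested passed an unadjusted p of 0.05, and 3 of them were higher. Dnajc6 (auxilin), the neuronal protein that recruits Hsc70 to clathrin coats, was at 128, 104 and 143 CPM after PRATA and at 80.3, 119 and 75.2 CPM after the sham operation (log2 fold change 0.45, edgeR adjusted p = 0.323). Dnajc5, the cysteine string protein of synaptic vesicles, had a log2 fold change of 0.14, and Dnajc27, a Rab-like GTPase with a J domain, of 0.31. Sham replicate 2 lay within the range of the PRATA samples for all 3.

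The name rule also took genes whose proteins do not work in the cytosol, so that "cytosolic" does not hold for at least 18 of the 83 genes: 10 encode mitochondrial proteins and 8 proteins of the ER membrane. The heat shock factors and the nuclear and spliceosomal DnaJ proteins also act in the nucleus. Without the mitochondrial and ER membrane genes, 29 of 55 genes tested were higher and 26 lower. At an unadjusted p under 0.05, 5 were higher and 4 lower, beside 8.19% and 10.1% of all genes. Of the mitochondrial genes, 3 were higher and 7 lower. Hspa9, the Hsp70 of the mitochondrial matrix, was at 440.3, 506 and 492 CPM against 802, 562 and 1019 CPM, lower without overlap (log2 fold change -0.73 ± 0.25 SE, edgeR unadjusted p = 0.0204, adjusted p = 0.214). Its call was lost without PRATA replicate 1, without sham replicate 3, and without PRATA replicate 3 and sham replicate 1 together. It was also lost with the replicate number as a block. Hspd1, the mitochondrial Hsp60, was at 433, 369.8 and 236 CPM against 430.2, 536 and 496 CPM (log2 fold change -0.49, edgeR adjusted p = 0.337). Its partner Hspe1 had a log2 fold change of -0.25, and Dnajc30 of -0.40. The matrix helpers were not lower as a group, since 3 of 4 had higher fitted levels, with Grpel2 at 0.37, Trap1 at 0.16 (-0.03 without sham replicate 1) and Grpel1 at -0.18 on the log2 scale.

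Of the 7 ER membrane DnaJ genes tested, 4 were higher and 3 lower, and 2 passed an unadjusted p of 0.05. Both were lower, beside 10.1% of all genes. Dnajc1, which binds the ribosome and BiP, was at 14.1, 17.1 and 12.9 CPM against 24.7, 18.9 and 33.9 CPM (log2 fold change -0.82 ± 0.25 SE, edgeR unadjusted p = 0.0110, adjusted p = 0.182), without overlap. Dnajc25 was at 19.9, 17 and 25.3 CPM against 44.8, 23.9 and 54.7 CPM, overlapping through PRATA replicate 3 and sham replicate 2 (log2 fold change -0.99 ± 0.31 SE, edgeR unadjusted p = 0.0123, adjusted p = 0.187). Both lost the call without sham replicate 3, and Dnajc1 also without PRATA replicate 3 and sham replicate 1 together. Dnajb14, an ER membrane J protein, had a log2 fold change of 0.31.

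The same samples were high for the ER chaperones that the name rule left out. Of the 6 in the table, 5 were lower after PRATA, and the median log2 fold change was -1.07. At an unadjusted p under 0.05, 3 were lower, beside 10.1% of all genes. Hspa5 (BiP), the Hsp70 of the ER lumen, was at 1644, 1805 and 1282 CPM after PRATA and at 3496, 989.6 and 6482 CPM after the sham operation (log2 fold change -1.21, edgeR adjusted p = 0.302). Sham replicates 1 and 3 were high and sham replicate 2 was below every PRATA sample. For Hspa9, Dnajc1, Dnajc25 and Dnajc21, sham replicates 1 and 3 were likewise the highest samples, whereas sham replicate 1 was the lowest sham sample for every chaperonin gene tested but Cct3. The part of the ER response of single sham samples in these values was not tested.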

How the data were processed

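The deposited values, made by the authors, are unnormalized read counts per gene in each of the 6 samples. Libraries were made from total RNA with a stranded kit that cleaves ribosomal fragments, after DNase I treatment, and sequenced in pairs. The paper names HISAT2, StringTie and Cuffdiff, and the submitters' processing notes name STAR 2.7.3a, RSEM and DESeq2. Which tool made the counts, the strand setting, the genome build and the annotation are not given in the sources used here, so the only coordinates printed are those of RefSeq's promoter windows in GRCr8. The paper gives an older age than the labels.

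Genes were kept by filterByExpr (minimum count 10, minimum total 15) of edgeR 4.0.16 in R 4.3.3, scaled by TMM (factors 0.953 to 1.10), and PRATA was compared with sham over all 14919 genes by the two-sided quasi-likelihood test with Benjamini-Hochberg adjustment. Deviations used log2 CPM with a pseudocount of 1. DESeq2 1.42.0 and voom of limma 3.58.1 with sample quality weights were alternatives, among 15 in all. The fit was tested on simulated data. An exact permutation test of 3 against 3 samples cannot give a p under 0.10, so none was used. Figures were drawn with matplotlib 3.10.9 in Python 3.11.15. Columns of other samples: 0.

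Genes named are all heat-inducible and chaperonin members, the heat shock factors, members past an unadjusted p of 0.05 with an absolute log2 fold change over 1, and up to 3 genes with the smallest p of each other list. Hsp90ab1, Hspe1, Hspa1l, Cryab, the ER genes and single non-passing members were named after their values were seen. The members and lists were chosen with earlier results of these data known.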

Additional observations from a re-analysis of the deposited data

How the results depend on the processing

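Depth limits genes near 3 counts, and leaving out 1 sample leaves 2 against 3. Of the 58 genes named by rule under 15 alternatives, 835 values kept direction and side of an adjusted p of 0.05, 22 newly passed it and 13 reversed. No gene passed it in the main fit, so none could lose it, and this tally is no measure of stability. Of the 12 members at an unadjusted p under 0.05, between 2 (without sham replicate 3) and 12 were called again, with 4 without PRATA replicate 1. The 5 members higher at an unadjusted p under 0.05 became 3 with DESeq2, beside 7.45% of all genes. With voom and sample quality weights (called voom here, with both changed at once) they were 13, beside 15.6%. Without PRATA replicate 3 and sham replicate 1 together they were 9, beside 5.98%. With 1 sample left out they were 2 to 10, beside 3.47% to 13.4%. The 7 lower became 11 with voom (15.3% of all genes), 3 without that pair (6.90%), and 0 to 10 with 1 sample left out (5.44% to 14.1%). At an adjusted p under 0.05, 0 became 4 with DESeq2 (4.99% of all genes), 7 with voom (7.86%) and 0 to 4 with 1 sample left out (0% to 4.67%). The median log2 fold change of all members tested, -0.0058, was 0.0016 with no filter, 0.0054 with voom, and between -0.11 and 0.04 with 1 sample left out (reversed at 0.036 without PRATA replicate 2, 0.00833 without sham replicate 2 and 0.027 without sham replicate 3). The medians of the heat-inducible (0.36 to 0.75) and chaperonin (-0.46 to -0.27) genes kept their sign.

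Reversals were among genes with small differences. With 1 sample left out, the log2 fold change of Hsp90aa1 ran from -0.053 to 0.28, the log2 fold change of Hsph1 from -0.035 to 0.41, the log2 fold change of Hsf1 from -0.14 to 0.066 (0.033 without sham replicate 3), the log2 fold change of Dnajc7 from -0.16 to 0.10 (0.0013 without PRATA replicate 3), the log2 fold change of Hspb6 from -0.27 to 0.0057, the log2 fold change of Hspb11 from -0.073 to 0.46, the log2 fold change of Trap1 from -0.025 to 0.34 and the log2 fold change of Pfdn4 from -0.015 to 0.25. Dnajc7 was at 0.032 with voom, and without PRATA replicate 3 and sham replicate 1 together Hspb11 was at -0.11 and Trap1 at -0.059. The cause was not tested.

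With the replicate number as a block, 5 members were higher and 4 lower at an unadjusted p under 0.05, beside 4.16% and 6.08% of all genes. Of the lower ones 0 were chaperonin genes, and the median of all members was 0.019. Deviations of same-numbered samples correlated at -0.39, -0.10 and -0.36. With 3 samples behind each group mean, these values cannot decide whether same-numbered samples were handled together.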
